A study of Rattus norvegicus with 12 samples.

Results

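The genes described here handle the export and storage of cholesterol and the nuclear receptors that sense it: Nr1h2 and Nr1h3, which encode the liver X receptors LXR beta and LXR alpha, and Abca1, Abcg1, Apoe, Pltp, Soat1 and Mylip. The rule picks them by symbol and uses no measured value, but they were proposed with earlier results of these data known. All 8 were found among the 30045 gene symbols of the count table and passed the filter on low counts with 15019 genes in all. Polyadenylated RNA of lung tissue was sequenced from 12 male rats of the Fischer 344 strain, an inbred line, which were 3 months old when bought. The 6 rats of the air group breathed air in whole-body chambers, and the 6 rats of the other group breathed crystalline nanocellulose (CNC), stiff rod-shaped crystals made from plant cellulose, at 20 mg/m3 for 6 hours a day on 5 days a week, over 14 days of exposure. Lungs were taken 1 day after the last exposure, and no group carried a transgene or an allele that the labels name. The comparison of CNC with air asks how the lung responds to the inhaled material.

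Liver X receptors are activated by oxysterols, the oxidised forms of cholesterol, and act on DNA as pairs with the retinoid X receptors. The genes they switch on move cholesterol out of the cell. Abca1 passes it to lipid-poor apolipoproteins, Abcg1 passes it to high-density lipoprotein particles, and Apoe and Pltp carry and exchange lipids outside the cell. Mylip marks lipoprotein receptors for destruction and so limits uptake. Soat1 is the enzyme that turns surplus cholesterol into esters for storage in droplets, and it is usually not counted as an LXR target. In the lung, alveolar macrophages take up spent surfactant and depend on Abcg1 to clear its cholesterol.

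The LXR pair is known to bind a direct repeat of AGGTCA spaced by 4 bases, and Abca1 carries the best-known example close to its start site. Promoter windows from 250 bases before to 50 bases after the start were taken from RefSeq on the GRCr8 build, where 7 of the 8 genes matched by symbol and Abcg1 did not. The strict letters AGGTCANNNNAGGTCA, searched on both strands, occurred in none of the members' windows and in 2 of 33469 windows overall (0.00598%). The looser letters NGGTNANNNNNGGTNA, which also match every strict site, occurred in 226 windows (0.675%) and, among the members, in that of Abca1 alone. The match, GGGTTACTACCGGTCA, lay on the strand opposite to transcription and began 70 bases before the start. The windows of Abca1 (chr5:72596424-72596723, minus strand), of Soat1 (chr13:71147623-71147922, minus strand) and of Pltp (chr3:174011933-174012232, minus strand) are shown because the results turn on these genes, each 5′ to 3′ in the direction of transcription, with the looser match in capitals where there is one.
Abca1: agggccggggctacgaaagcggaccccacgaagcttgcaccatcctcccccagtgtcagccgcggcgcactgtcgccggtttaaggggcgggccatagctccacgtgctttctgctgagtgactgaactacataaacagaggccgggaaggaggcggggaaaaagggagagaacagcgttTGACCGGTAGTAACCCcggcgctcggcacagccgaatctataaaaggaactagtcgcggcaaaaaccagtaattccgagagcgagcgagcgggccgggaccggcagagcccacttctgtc
Soat1: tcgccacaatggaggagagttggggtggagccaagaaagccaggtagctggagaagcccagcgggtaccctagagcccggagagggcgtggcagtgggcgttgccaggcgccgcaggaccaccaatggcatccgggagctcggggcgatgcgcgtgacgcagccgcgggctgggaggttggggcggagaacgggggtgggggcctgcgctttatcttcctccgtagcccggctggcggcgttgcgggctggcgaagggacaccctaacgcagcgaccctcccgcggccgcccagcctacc
Pltp: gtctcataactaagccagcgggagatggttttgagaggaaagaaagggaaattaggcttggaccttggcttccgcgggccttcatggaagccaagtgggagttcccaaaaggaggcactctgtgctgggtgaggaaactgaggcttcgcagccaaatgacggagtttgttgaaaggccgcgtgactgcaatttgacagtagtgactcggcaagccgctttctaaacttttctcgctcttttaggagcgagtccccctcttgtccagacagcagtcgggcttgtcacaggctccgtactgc
A window without a match says only that these letters do not occur in those bases.

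Library totals ran from 8693259 to 16603697 counts. Levels are given as CPM, a gene's count relative to the library total after TMM scaling, and are not compared between genes of different length. Markers of the labelled tissue were abundant, with the surfactant gene Sftpc at 10230 ± 1094 CPM in air (SD, n = 6). Heart muscle markers, which a lung piece can carry from the pulmonary veins, summed to between 15.6 and 437 CPM in the air rats and between 15.5 and 129 CPM in the CNC rats, and were highest in air replicates 4 and 5. The alveolar macrophage marker list summed to between 701 and 813 CPM in air and between 954 and 1291 CPM in CNC, with 8 of 11 tested markers called higher and 2 lower. Among these markers Marco was listed at 0 counts in every library, which allows at most 0.0199 CPM over the 12 libraries by counting error alone. A gene that the counting misses would give the same 0, so this is no evidence that the lungs lack Marco. Similarly, the fibroblast marker Col1a2 had 1 count in the air libraries and 0 in the CNC libraries, where Col1a1 had 376 CPM in air. The cause was not tested. Neutrophil markers summed to between 174 and 274 CPM in air and between 447 and 707 CPM in CNC (6 of 9 higher, 0 lower). Alveolar type 2 cell markers summed to between 23526 and 30698 CPM in air and between 31206 and 38254 CPM in CNC (8 of 10 higher, 0 lower). Endothelial markers summed to between 5350.5 and 6240.2 CPM in air and between 4484 and 5073 CPM in CNC (0 of 10 higher, 9 lower). The part of these shifts in the results below was not tested, and in bulk tissue fewer cells of a type and less RNA per cell cannot be told apart.

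After CNC, Abcg1 and Soat1 rose by similar amounts, 1.38-fold and 1.37-fold, and Pltp fell 1.15-fold. Abca1, Apoe, Mylip and the receptors Nr1h2 and Nr1h3 were not called. Thus 2 of the 8 members were higher, where 13.2% of all tested genes were called higher, and 1 was lower, where 11.4% of all tested genes were called lower. No member changed by 1.5-fold or more, and the median log2 fold change over the 8 was -0.04, against -0.0026 over all genes tested. Calls were made by edgeR's quasi-likelihood test at an adjusted p of 0.05, with Benjamini-Hochberg adjustment over the 15019 genes.

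**Figure D1:**
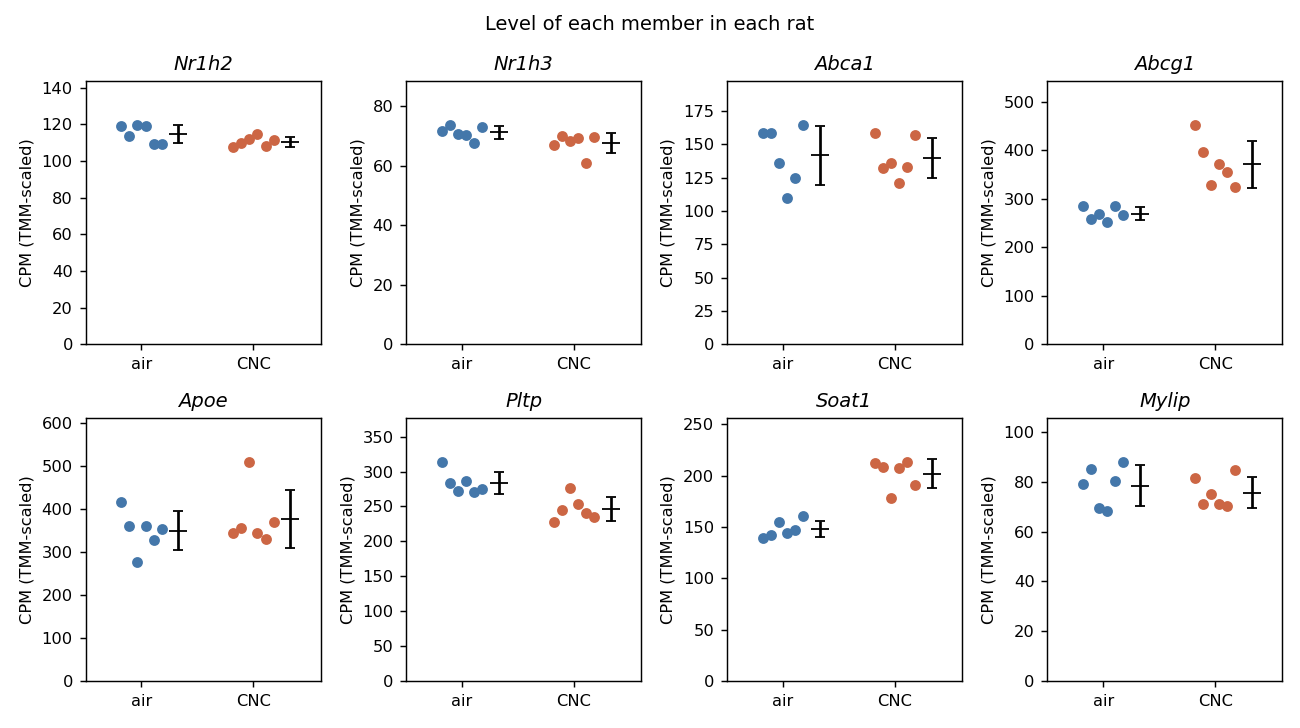
Level of each of the 8 genes in CPM after TMM scaling (vertical axes start at 0), with a point for each rat of the air (blue) and CNC (orange) groups and, beside the points, the mean and SD of 6 rats. The groups are apart for Abcg1 and Soat1, and for Apoe the CNC group holds a single high rat at 509.9 CPM.

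Both receptor genes were expressed at nearly the same level in every rat. Nr1h3, the LXR of macrophages and other lipid-handling cells, had a lowest, median and highest level of 67.7, 71.2 and 73.7 CPM in air and of 60.9, 68.8 and 70.0 CPM in CNC. All 6 CNC rats lay below the air median, and the groups overlapped. The log2 fold change was -0.08 ± 0.04 (SE), with a 95% interval from -0.16 to 0.0046 and an edgeR adjusted p of 0.165. Nr1h2, the more widely expressed LXR, ran from 109 through a median of 116 to 119.7 CPM in air and from 107 through 110.5 to 115 CPM in CNC. Again all 6 CNC rats lay below the air median, and the ranges overlapped. Its log2 fold change was -0.06 ± 0.03 (SE), with a 95% interval from -0.13 to 0.01 and an edgeR adjusted p of 0.226. The ratio of Nr1h3 to Nr1h2 within a rat, which does not depend on library scaling, had a median of 0.611 in air and 0.617 in CNC (2-sided exact permutation test over 924 splits of the rats, p = 0.615, adjusted p = 0.768 over the 5 ratios compared).

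The exporters Abca1 and Abcg1 differed in response. Abcg1, which loads cholesterol onto high-density lipoprotein, had a lowest, median and highest level of 251, 268 and 285 CPM in air and of 324, 363 and 452 CPM in CNC. Every CNC rat lay above every air rat, and the CNC rats were more spread out than the air rats, with a coefficient of variation of 12.99% against 5.12%. Abcg1 thus rose from 269 ± 13.8 to 371 ± 48.3 CPM (SD over the 6 rats of each group), a log2 fold change of 0.46 ± 0.07 (SE, edgeR adjusted p = 0.000181). Abca1, which loads lipid-poor apolipoprotein and is the classical LXR target, ran from 109 through a median of 147 to 164 CPM in air and from 121 through 134 to 159 CPM in CNC. The groups overlapped almost fully, with 2 CNC rats above the air median and 4 below it. The means were 142 ± 22.1 and 139.5 ± 15.1 CPM, the log2 fold change was -0.02 ± 0.09 (SE), and the edgeR adjusted p was 0.889. The 95% interval of the Abca1 fold, from 0.855 to 1.13, does not reach the 1.24 at the lower end of the Abcg1 interval. The difference itself was tested within rats: the ratio of Abcg1 to Abca1 had a median of 1.89 in air and 2.76 in CNC, and 5 of 6 CNC rats lay above the highest air rat. Its log2 difference was 0.47, or 1.38-fold (2-sided exact permutation test, p = 0.00866, adjusted p = 0.0144).

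The air rats varied more in Abca1 than in the median gene. Its coefficient of variation was 15.6% in air, against a median of 5.07% over the 4846 genes whose mean reached 50 CPM. Air replicates 4 and 5, with 109 and 124 CPM, were the lowest in Abca1 and the highest in heart muscle markers, and without them the log2 fold change of Abca1 was -0.15 (edgeR adjusted p = 0.173). They were also the lowest air rats in endothelial markers, at 5363 and 5350 CPM, where the others had at least 5604 CPM. In type 1 cell markers they had 8554 and 8565 CPM, where the other air rats had at least 9025 CPM. Other lists went the opposite way. In smooth muscle and pericyte markers they were the highest air rats, at 1119 and 1013 CPM, where the others had at most 970 CPM. The same held for fibroblast markers, at 2810 and 2655 CPM against at most 2593 CPM. With the heart muscle markers as a covariate, Abca1 kept its direction and was still not called. The part of these markers in the Abca1 level was not tested. Circadian clock genes differed between the groups, with 7 of 14 tested clock genes higher and 5 lower in CNC. The score of each rat on their leading component ran from -1.32 to -0.36 in CNC and from 0.59 to 1.55 in air apart from air replicate 4, at -0.37, so the score and the exposure can hardly be told apart. In a fit with this clock score as a covariate the log2 fold change of Abca1 turned to 0.44 ± 0.14 (SE, edgeR adjusted p = 0.0751), still short of the threshold.

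**Figure D2:**
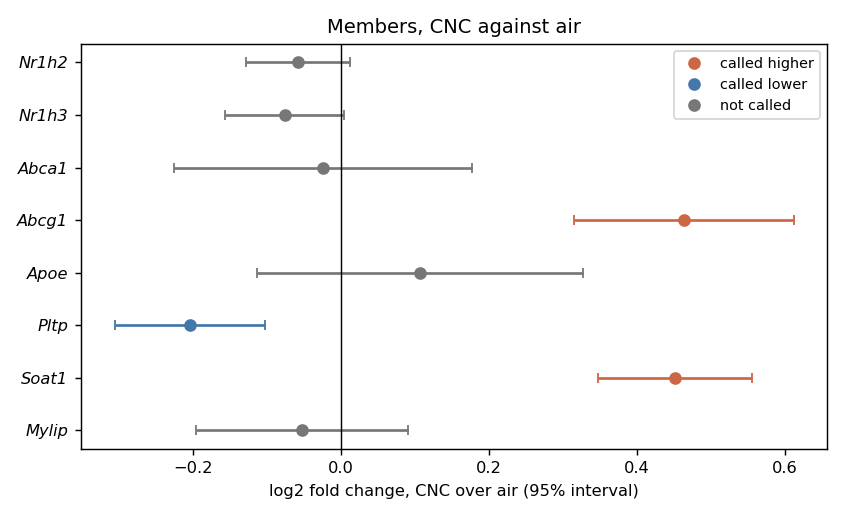
Log2 fold change of each member, CNC over air, with its 95% interval (bars), coloured by call. Only the intervals of Abcg1, Soat1 and Pltp leave 0, and those of the receptors are the narrowest.

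Of Apoe and Pltp, the secreted lipid carriers, only Pltp was called. Apoe, the lipoprotein that macrophages release with cholesterol, had a lowest, median and highest level of 277, 356 and 415 CPM in air and of 331, 350.5 and 509.9 CPM in CNC. The groups overlapped, and CNC replicate 3 alone lay above every air rat. The log2 fold change was 0.11 ± 0.10 (SE), with a 95% interval from -0.11 to 0.33 and an edgeR adjusted p of 0.505. Without CNC replicate 3 the log2 fold change was 0.0022, and without CNC replicates 3 and 6 it was -0.03, so the small positive mean rests on that rat. Pltp, which transfers phospholipids between lipoprotein particles, ran from 271 through a median of 279 to 314 CPM in air and from 228 through 242 to 276 CPM in CNC. In 5 of 6 CNC rats Pltp lay below the lowest air rat, and the exception was again CNC replicate 3, at 276 CPM. Pltp fell from 284 ± 16.3 to 246 ± 16.8 CPM (SD over the 6 rats of each group), a log2 fold change of -0.20 ± 0.05 (SE, edgeR adjusted p = 0.00552). With the clock covariate the Pltp value was -0.24 and the call was lost (adjusted p = 0.16). The ratio of Apoe to Pltp was higher in every CNC rat than in any air rat, with a median of 1.27 in air and 1.48 in CNC and a 1.24-fold difference (p = 0.00216 by the 2-sided exact permutation test, the smallest that 924 splits allow, adjusted p = 0.0108). This held without CNC replicate 3, where the log2 difference was 0.25, against 0.31 with all rats.

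Storage was represented by Soat1, the sterol acyltransferase of macrophages and most other tissues. Soat1 had a lowest, median and highest level of 139, 145 and 160.5 CPM in air and of 178, 208 and 214 CPM in CNC. The groups were apart, with every CNC rat above every air rat. It rose from 148 ± 8.07 to 202 ± 14.3 CPM (SD over the 6 rats of each group), a log2 fold change of 0.45 ± 0.05 (SE, edgeR adjusted p = 1.09e-05). Abcg1 and Soat1 were the 2 members whose groups did not overlap, which was so, upward, for 6.82% of all tested genes. No member had groups apart in the downward direction, which was so for 4.7% of all tested genes. The ratio of Soat1 to Abca1 rose 1.38-fold, from a median of 1.06 to 1.46 (2-sided exact permutation test, p = 0.00649, adjusted p = 0.0144), with 4 of 6 CNC rats above the air range. The ratio of Soat1 to Abcg1 had a median of 0.561 in air and 0.551 in CNC, a log2 difference of -0.0072 (2-sided exact permutation test, p = 0.913, adjusted p = 0.913). Its SD over rats was 0.11 in air and 0.13 in CNC on the log2 scale, and 4 of 6 CNC rats lay within the air range.

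**Figure D3:**
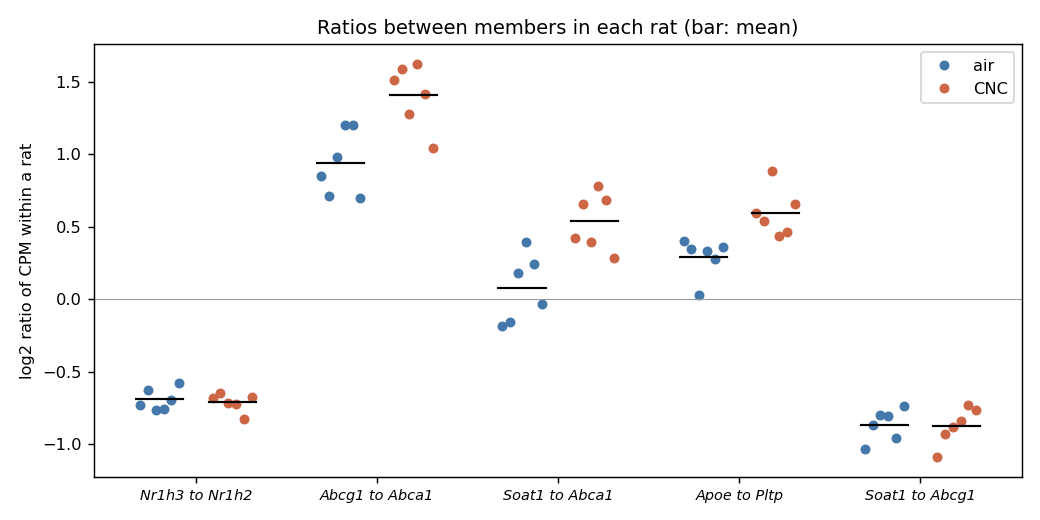
Log2 ratio of the CPM of 2 members within each rat, for the 5 ratios compared, with a point for each rat of the air (blue) and CNC (orange) groups and a bar at the mean. The ratios over Abca1 and that of Apoe to Pltp are shifted upward in CNC, and the points of the groups overlap for the receptors and for Soat1 to Abcg1.

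The CNC rats with least Abcg1 and Soat1, replicates 3 and 6, were also lowest of the CNC rats in several marker lists and highest in others. CNC replicates 3 and 6 had 328 and 324 CPM of Abcg1, 178 and 191 CPM of Soat1, and summed alveolar macrophage markers of 954 and 964 CPM. CNC replicates 1 and 2 had 452 and 397 CPM of Abcg1, 213 and 208 CPM of Soat1, and marker sums of 1291 and 1209 CPM. The remaining CNC replicates 4 and 5 had 372 and 355 CPM of Abcg1 and 208 and 214 CPM of Soat1, with marker sums of 1123 and 1135 CPM, so that replicate 5 had the highest Soat1 at a marker sum in the middle of the range. CNC replicates 3 and 6 were lowest in alveolar type 2 markers too, at 32808 and 31206 CPM, where the other CNC rats had at least 34875 CPM. In neutrophil markers they had 447 and 547.5 CPM, where the other CNC rats had at least 555 CPM. They were the highest CNC rats in endothelial markers, at 5008 and 5073 CPM, where the others had at most 4837 CPM. The same held for smooth muscle markers, at 858 and 785 CPM against at most 745 CPM. It held for lymphocyte markers too, at 128 and 120 CPM against at most 115 CPM. Between the groups the mean alveolar macrophage sum was 1.45-fold higher in CNC, and the part of the markers in the rises of Abcg1 and Soat1 was not tested. Left out together, CNC replicates 3 and 6 changed neither call.

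Mylip, the ubiquitin ligase that removes lipoprotein receptors, was not called. It had a lowest, median and highest level of 68.4, 79.7 and 88.1 CPM in air and of 70.3, 73.2 and 84.7 CPM in CNC. The groups overlapped, with 2 CNC rats above the air median and 4 below. The log2 fold change was -0.05 ± 0.07 (SE), with a 95% interval from -0.20 to 0.09 and an edgeR adjusted p of 0.628. With the clock covariate the value turned to 0.15 (adjusted p = 0.519). The receptors that Mylip removes were called in part. Lrp8, a receptor of Apoe, rose from 6.57 ± 1.49 to 10.6 ± 1.52 CPM (SD over the 6 rats of each group, edgeR adjusted p = 0.00206). With the clock covariate the Lrp8 call was lost, at a log2 fold change of 0.57 (adjusted p = 0.262) against 0.69 without it. Vldlr, which binds triglyceride-rich particles, had 90.4 ± 6.24 CPM in air and 84.0 ± 6.37 CPM in CNC (adjusted p = 0.174).

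No relation between Nr1h3 and its targets over the rats of a group passed the test. Over the 6 air rats, Nr1h3 and Abca1 had a Pearson r of 0.755 (2-sided exact permutation p = 0.0792, adjusted p = 0.792) and a Spearman rho of 0.886 (exact permutation p = 0.0333). Without the 2 rats farthest from the median of Nr1h3, that r was 0.87. Over the 6 CNC rats the same pair had an r of 0.0483 (exact permutation p = 0.928, adjusted p = 0.992), a rho of -0.314 (exact permutation p = 0.564) and, without the 2 rats, an r of 0.093. Of the 10 relations of Nr1h3 with Abca1, Abcg1, Apoe, Pltp and Mylip in the 2 groups, none passed after adjustment. The other 8 had r from -0.393 to 0.469 and adjusted exact permutation p of 0.832 or 0.992. Levels in a rat share its library and scaling.

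For Abca1, Apoe and Nr1h3 the 3 nearest patterns over the 12 rats were looked up, after subtracting the group means. Among the 12103 genes whose mean reached 5 CPM, Abca1 was most like the aryl hydrocarbon receptor gene Ahr (r = 0.952), the pericyte regulator Rgs5 (r = 0.935) and the endothelial receptor Cd93 (r = 0.929). Apoe was most like the adhesion molecule Sdk1 (r = 0.922), the Wnt receptor Fzd1 (r = 0.906) and the lipid phosphatase gene Ppap2b (r = 0.893). Nr1h3 was most like Pgs1, of mitochondrial lipid synthesis (r = 0.957), Msantd2 (r = 0.926) and the deacylase Sirt5 (r = 0.90). Among the members themselves, Abca1 was most like Mylip (r = 0.808) and Apoe most like Pltp (r = 0.812), while Apoe and Soat1 ran in opposite directions (r = -0.794). CNC replicate 3 had the highest Apoe and Pltp and the lowest Soat1 of the CNC rats, at 509.9, 276 and 178 CPM. The r values of these pairs were not computed without that rat. All r values here are measures of likeness, each the highest of many, and carry no test.

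The other genes of sterol handling were described by 9 lists of 131 genes, of which 110 were tested. Of these, 47 were called higher and 9 lower, 50.9% in all, against 24.6% of all tested genes called in either direction. Like the members, the lists were chosen with earlier results of these data known, so the larger share is no test of the lists. The median log2 fold change of the 110 was 0.13. With the clock covariate 15 were higher and 3 lower, and over all genes 554 were higher and 328 lower. A call lost in that fit need not mean a smaller fold, since the score nearly separates the groups.

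**Figure D4:**
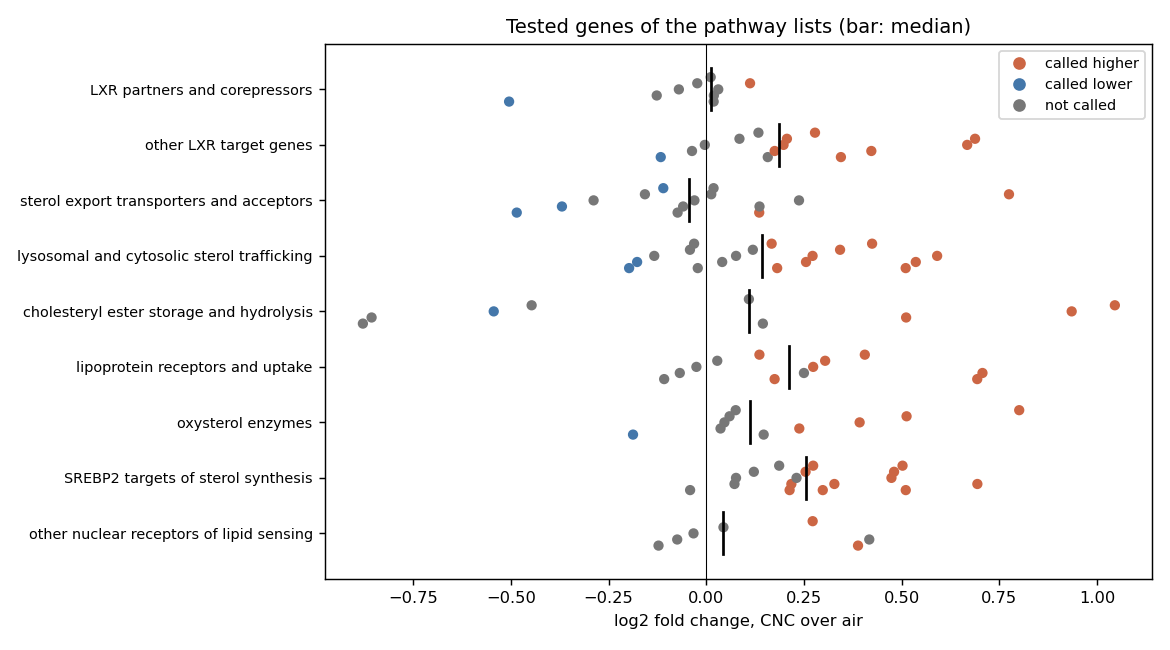
Log2 fold change, CNC over air, of each tested gene of the 9 sterol lists (points, coloured by call), with a bar at each list's median. The medians run from -0.05 for export transporters and acceptors to 0.25 for the sterol synthesis genes.

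Of 9 tested LXR partners, coactivators and corepressors, 1 was higher and 1 lower, with a median log2 fold change of 0.01. Rxra had 58.7 ± 5.35 CPM in air and 53.9 ± 2.42 CPM in CNC (edgeR adjusted p = 0.112), a call that appeared without air replicate 3 (adjusted p = 0.0262). Rxrb had 58.9 ± 1.84 and 56.2 ± 3.62 CPM (adjusted p = 0.269). The scarce partner Rxrg fell from 4.55 ± 0.802 to 3.24 ± 0.53 CPM (SD over the 6 rats of each group, edgeR adjusted p = 0.0171), a call lost without air replicate 2 (adjusted p = 0.0517). The coactivator Ncoa1 rose from 154 ± 7.08 to 167 ± 6.49 CPM (adjusted p = 0.0365), and that call was lost on leaving out air replicate 1, 2 or 4 or CNC replicate 1, 2 or 5 (adjusted p from 0.0516 to 0.0762), with upper quartile scaling and with library size alone. Neither kept its call with the clock covariate, where the log2 fold change of Rxrg was -0.49 (adjusted p = 0.328) and that of Ncoa1 0.21 (adjusted p = 0.0759). Among other lipid-sensing receptors 2 of 7 were higher and 0 lower (median 0.04): Pparg, the receptor that alveolar macrophages need to mature, rose from 13.3 ± 1.24 to 17.3 ± 3.45 CPM, a call lost without CNC replicate 1 or 2 (adjusted p of 0.0566 and 0.0562), and the energy regulator Esrra rose from 28.4 ± 1.53 to 34.3 ± 1.41 CPM. Both calls were lost with the clock covariate, at log2 fold changes of 0.65 for Pparg (adjusted p = 0.0981) and 0.17 for Esrra (adjusted p = 0.284).

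Of 14 other tested genes listed here as LXR targets, 8 were higher and 1 lower, and the list median on the log2 scale was 0.19. Whether LXR raises each listed gene in lung was not tested, so these counts are no measure of LXR activity. The count of those higher was 4 or 5 without air replicate 1 or 2 or CNC replicate 1 or 2, and 4 with the clock covariate. Lpcat3, which puts unsaturated fatty acids into phospholipids, rose from 61.0 ± 0.962 to 77.4 ± 4.53 CPM (SD over the 6 rats of each group, edgeR adjusted p = 1.42e-05). The fatty acid synthase Fasn rose from 892 ± 118 to 1436 ± 171 CPM (adjusted p = 4.2e-05), the carbohydrate sensor Mlxipl from 6.82 ± 1.22 to 10.8 ± 0.931 CPM and Nampt, an enzyme of NAD synthesis, from 90.7 ± 1.83 to 104 ± 4.92 CPM. The lipase Lpl rose from 476 ± 22.6 to 549 ± 65.8 CPM (adjusted p = 0.0287), a call lost without air replicate 1, 2 or 4 or CNC replicate 1 or 2 in turn (adjusted p from 0.05 to 0.0685). Srebf1, the LXR target that drives fatty acid synthesis, had 117 ± 13.1 CPM in air and 114 ± 6.94 CPM in CNC (adjusted p = 0.737), with a log2 fold change of -0.04 that was 0.01 without air replicate 6 and 0.18 with the clock covariate. The sterol pumps of gut and liver, Abcg5 and Abcg8, did not reach the count filter, as all libraries together held 2 and 1 counts of them.

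Several genes that bring cholesterol out of the lysosome rose. Of 18 tested genes of lysosomal and cytosolic sterol trafficking, 9 were higher and 2 lower, with a median log2 fold change of 0.14 (5 higher with the clock covariate). Npc2, which hands cholesterol to the lysosomal membrane, rose from 638 ± 74.7 to 960.1 ± 75.3 CPM (SD over the 6 rats of each group, edgeR adjusted p = 3.25e-05), and its partner Npc1 rose from 130.4 ± 8.1 to 155 ± 11.7 CPM (adjusted p = 0.00224). The acid lipase Lipa, which frees cholesterol from its esters, rose from 171 ± 9.42 to 243 ± 21.2 CPM. The sterol carriers Osbpl8, from 135 ± 9.79 to 196 ± 12.4 CPM, and Scp2, from 269 ± 10.8 to 341 ± 13.2 CPM, rose as well. In ester storage and hydrolysis 3 of 9 were higher and 1 lower (median 0.11). Soat2, the esterifying enzyme of gut and liver, rose from 0.726 ± 0.284 to 1.5 ± 0.364 CPM (adjusted p = 0.00849), a level at which the 6 CNC libraries held 112 counts. The ester hydrolase Nceh1 rose from 58.3 ± 4.95 to 83.0 ± 8.21 CPM, and the droplet protein Cidea from 1.5 ± 0.417 to 2.94 ± 0.262 CPM. The lipase Lipe fell from 113 ± 12.7 to 77.8 ± 5.94 CPM.

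The other genes listed here with the exporters and acceptors showed no common direction. The list also holds genes that are neither, such as Cav1, which is counted among the type 1 cell markers as well. Of 14 tested, 2 were higher and 3 lower, the list median was -0.05 on the log2 scale, and the count of those higher was 1 on leaving out air replicate 1, 2 or 4 or CNC replicate 1, 2, 4 or 5. Scarb1, a receptor for high-density lipoprotein, rose from 127 ± 2.6 to 139 ± 6.92 CPM (SD over the 6 rats of each group, edgeR adjusted p = 0.00984). Abca8 fell from 26.0 ± 2.31 to 18.6 ± 0.882 CPM, and Cav1, the caveola protein abundant in endothelium and type 1 cells, fell from 1596 ± 119 to 1235 ± 43.01 CPM. Abca7, the nearest relative of Abca1, fell from 94.4 ± 4.53 to 87.5 ± 2.34 CPM (adjusted p = 0.033), a call lost without air replicate 2 or 6 or CNC replicate 1, 2, 3 or 5 in turn (adjusted p from 0.0555 to 0.0883). In the list 0 genes were called in either direction with the clock covariate, and the log2 fold changes were 0.032 for Scarb1 (adjusted p = 0.826), -0.26 for Abca8 (0.162), -0.19 for Cav1 (0.157) and -0.045 for Abca7 (0.771).

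Uptake and oxysterol genes were mostly higher where called. Of 12 tested receptors of lipoprotein uptake 7 were higher and 0 lower (median 0.21, 2 higher with the clock covariate). The scavenger receptor Msr1 rose from 49.5 ± 2.8 to 80.5 ± 14.3 CPM (SD over the 6 rats of each group, edgeR adjusted p = 5.73e-05), Cd36 from 104 ± 8.37 to 128 ± 7.52 CPM, Sorl1 from 84.9 ± 5.63 to 103 ± 4.98 CPM and the endocytic receptor Lrp2 from 128 ± 14.6 to 169.7 ± 20.1 CPM. Of 10 tested enzymes that make or remove oxysterols 4 were higher and 1 lower (median 0.11, 0 of either with the clock covariate). Ch25h, which makes 25-hydroxycholesterol, rose from 14.0 ± 3.58 to 24.2 ± 3.84 CPM (adjusted p = 0.000576), while Cyp27a1, which makes 27-hydroxycholesterol, fell from 54.8 ± 3.52 to 48.1 ± 3.02 CPM (adjusted p = 0.0134). Both produce ligands of the LXRs. Dhcr7, of the last steps of cholesterol synthesis, rose from 10.6 ± 1.73 to 15.2 ± 1.36 CPM. The log2 fold change of Ch25h with the clock covariate was 0.93 ± 0.28 (SE, adjusted p = 0.0648), against 0.80 ± 0.14 without it. Those of Dhcr7 and Cyp27a1 were 0.44 (adjusted p = 0.215) and -0.079 (adjusted p = 0.705), against 0.51 and -0.19.

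In sterol synthesis 11 of 17 tested genes were higher and 0 lower, and the median log2 fold change was 0.25. The count was 6 without air replicate 1 and 2 with the clock covariate. Fdps, of isoprenoid synthesis, rose from 92.5 ± 7.09 to 132 ± 3.6 CPM (SD over the 6 rats of each group, edgeR adjusted p = 2.17e-06), Cyp51 from 61.4 ± 6.19 to 85.5 ± 9.99 CPM, Sqle from 28.6 ± 3.64 to 39.8 ± 6.12 CPM and Mvd from 6.73 ± 0.707 to 10.9 ± 1.68 CPM. With the clock covariate, 14 of the 34 called genes named from the lists kept their call. These were Npc1, Npc2, Lipa, Osbpl8, Scp2, Nceh1, Cidea, Lpcat3, Fasn, Mlxipl, Fdps, Cyp51, Msr1 and Lrp2. Besides those given above, calls were lost for Soat2, Nampt, Lpl, Lipe, Cd36, Sorl1, Sqle and Mvd (edgeR adjusted p from 0.116 to 0.377). Each of these kept its direction.

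**Figure D5:**
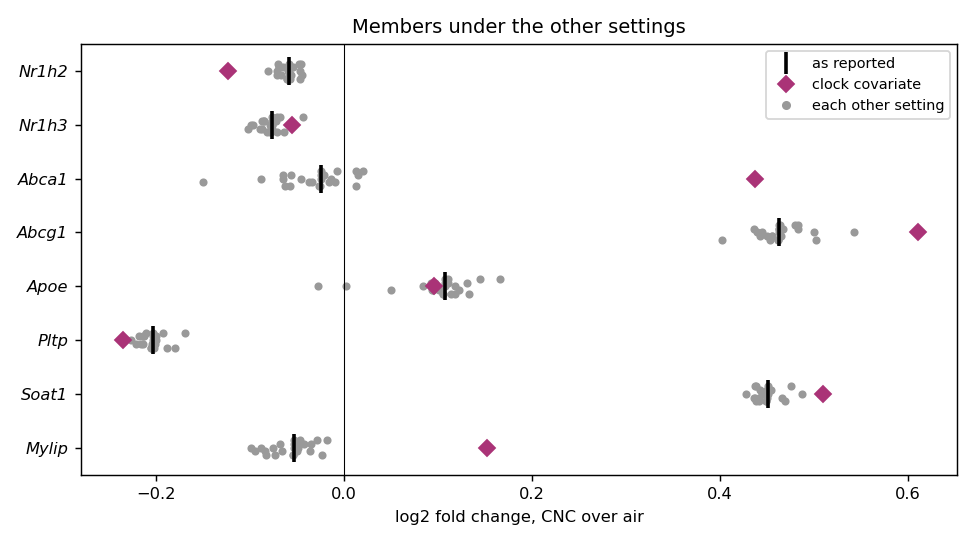
Log2 fold change, CNC over air, of each member as reported (black bar), with the clock covariate (diamond) and in each other setting or with rats left out (grey points). Abcg1 and Soat1 stay above 0.4 and Pltp stays below -0.16 in all 25 other settings, while Abca1 and Mylip cross 0 with the clock covariate. Abca1 also crosses 0 without air replicate 1, 2 or 6 or CNC replicate 4, and Apoe does so without CNC replicates 3 and 6.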

How the data were processed

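Polyadenylated RNA was sequenced in 12 lungs, 6 per group as the labels give the treatment. The authors deposited raw counts per gene symbol, whole numbers with no normalization, in a table named for the Rnor6 build. The submitters' processing notes list HISAT2 2.1.0, HTSeq 0.11.2, Trimmomatic 0.35, SAMtools 1.8, bcl2fastq 2.19 and Cufflinks. For the annotation and the counting's strand setting, a value was not given in the sources used here, so overlapping genes on opposite strands cannot be told apart. The labels name no batch.

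Here, edgeR 4.0.16 (filterByExpr, minimum count 10, TMM scaling, quasi-likelihood test) was run on all counts, with Benjamini-Hochberg adjustment over 15019 genes and a threshold of 0.05, after checking the procedure on simulated data. The standard error is the log2 fold change divided by the square root of F. Ratios and relations were tested by exact permutation over rats, with a prior count of 2 in log2 CPM. PCR reads without molecular identifiers are not independent molecules, so floors cover counting error only.

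Members and lists were chosen with earlier results of these data known. Named were all members, up to 4 called genes of smallest adjusted p per list, 16 fixed genes and the 3 nearest patterns of Nr1h3, Abca1 and Apoe. Sftpc, Marco, Col1a1 and Col1a2 were named as markers. Some genes that the rule names are not reported here, but list counts include them. Alternatives used DESeq2 1.42.0, limma 3.58.1 (voom), other scalings, filters and covariates, and left-out rats. Of further marker lists, monocyte markers were higher in 5 of 10 and lower in 2. None were higher of the airway (2 of 7 lower), fibroblast (5 of 7), smooth muscle (5 of 8), type 1 (5 of 8), lymphocyte (0 of 9), adipocyte (1 of 2), red cell (4 of 5) and heart muscle (1 of 9) markers.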

Additional observations from a re-analysis of the deposited data

Results flagged for a closer look

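In 102 groups of 6 rats (members, named genes and ratios), 9 held a rat whose gap to its nearest neighbour was over 0.625 of the group's range. Chance alone flags about 1 in 20 groups, or 5.1 here. Among the members, Apoe was high in CNC replicate 3, at 509.9 CPM, where the next rat had 370.1 CPM. Nr1h3 was low in CNC replicate 5, at 60.9 CPM, below the next at 67.0 CPM. Pltp was high in air replicate 1, at 314 CPM, above the next at 286 CPM. The ratio of Apoe to Pltp was low in air replicate 3, at 1.02, below the next at 1.21. Of the other named genes, Lipa was high in CNC replicate 1 (284 CPM), Ch25h in CNC replicate 2 (31.5 CPM), and Sqle in CNC replicate 5 (51.7 CPM). Cd36 was low in air replicate 2 (88.2 CPM) and Fdps in air replicate 1 (78.7 CPM).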

How the results depend on the processing

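Abcg1, Soat1, Nr1h2 and Nr1h3 kept their direction and their side of the threshold in all 25 alternatives. With the clock covariate the count of all genes called was 554 higher and 328 lower, that of the lists 15 and 3, and that of members lower 0. There the log2 fold change of Pltp was -0.24 (call lost), and those of Abca1 (0.44), Mylip (0.15), Srebf1 (0.18) and Vldlr (0.073) changed sign. At an adjusted p of 0.01, 1244 genes were higher and 902 lower, and 5 list genes were lower. Without CNC replicates 3 and 6 Apoe changed sign (-0.028). Leaving out each rat gave log2 fold changes from -0.089 to 0.020 for Abca1, from 0.0022 to 0.17 for Apoe and from -0.065 to 0.013 for Srebf1. It gave log2 differences from -0.034 to 0.0028 for Nr1h3 to Nr1h2 and from -0.040 to 0.036 for Soat1 to Abcg1. In the relations with Nr1h3, r changed sign without the 2 farthest rats for Abcg1 in air (0.45), and in CNC for Apoe (-0.914), Pltp (-0.904) and Mylip (-0.0175), and with library size alone for Abcg1 in CNC (-0.0723). The cause of these changes was not tested. No paired analysis was possible because the labels give the groups no shared replicate numbers. Depth limits Soat2, Cidea and Rxrg, at a few CPM, more than the members.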
